A study of Homo sapiens with 12 samples.

Results

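Interferon-stimulated genes are described here across FAT1 knockdown in oral squamous cell carcinoma cells: 43 genes, chosen by their symbols from a list of well-known interferon targets, out of 19225 entries in the count table. All 43 symbols were found, and all 43 passed the filter on low counts, which left 13887 genes tested. The cells were HN6 and HN30, 2 established human head and neck squamous carcinoma lines, so each line stands for itself and not for a set of tumours. Each line received a scrambled siRNA (the negative control, NC), siFAT1-1 or siFAT1-2, the latter 2 directed against FAT1, which encodes a large atypical cadherin. All cells, the controls included, were transfected with Lipofectamine RNAiMAX and harvested after 24 h, so that no untransfected cells enter any comparison. The titles call the siRNA groups sh1 and sh2, whereas the sample descriptions call them siRNAs, and they are taken as siRNAs here. Each of the 6 conditions was measured in 2 repeats done at separate times (repeat 1 and repeat 2), giving 12 poly(A) RNA libraries. The p-values below therefore rest on repeats of the same lines. In fits across the lines, the spread they use also holds differences in response between the lines. Where both siRNAs are pooled, it holds differences between the siRNAs too.

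Type I and type III interferons are secreted by cells that sense viral nucleic acid, and they act on the same and neighbouring cells. Their receptors activate JAK1 and TYK2, which phosphorylate STAT proteins, STAT2 among them. STAT2 and IRF9 act in the complex ISGF3, which binds the interferon-stimulated response element (ISRE) in promoters. Interferon gamma acts mainly through a different element, the gamma-activated site (GAS). The induced proteins degrade or trap viral RNA, block entry and budding, tag proteins with ISG15, and feed back on the pathway. Epithelial cells, the origin of both lines, carry the receptors for type I and type III interferons.

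The libraries held 26430049 to 47639010 counts, with a median of 32561793. Levels are given as CPM, the count in a library scaled to 1000000 counts, with library sizes adjusted by the trimmed mean of M-values (TMM), and pairs of values are in the order repeat 1, repeat 2. FAT1 in HN6 was at 56.8 and 66.7 CPM with NC, 7.61 and 13.5 with siFAT1-1 and 13.2 and 21.4 with siFAT1-2. FAT1 in HN30 was at 13.6 and 14.7 CPM with NC, 4.86 and 6.26 with siFAT1-1 and 10.8 and 7.74 with siFAT1-2. FAT1 was thus lower in every siRNA library than in either NC library of that line, with the smallest gap for siFAT1-2 in HN30. Across lines, the log2 fold change of FAT1 against NC was -1.996 (SE 0.32, adjusted p = 0.00656) with siFAT1-1 and -1.27 (SE 0.31, adjusted p = 0.0236) with siFAT1-2, by the edgeR quasi-likelihood test with Benjamini-Hochberg correction. Markers of squamous epithelium were all detected, at a summed level of 1242 to 6013 CPM. Summed fibroblast markers were at 12.5 to 164 CPM, leukocyte markers at 2.66 to 15.3 CPM (6 of 8 detected, with CLEC4C among those at 0 in all 12 libraries), and endothelial markers at 0.202 to 7.87 CPM.

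For many of these genes the binding sequences of the pathway can be read directly from the promoter. RefSeq promoters of GRCh38.p14, from 250 bases before to 50 bases after each transcription start, were found for 37 of the 43 genes. A minimal ISRE, searched on both strands as GAAA, then any 2 bases, then GAAA again, was present in the promoters of 24 of these 37 genes (64.9%), against 4.38% of all 27305 genes with a promoter. A minimal GAS, TTCNNNGAA, which reads the same on both strands, was present in 12 of the 37 (32.4%), against 9.38% of all genes. The windows below are shown because their genes recur in the results: members of several classes with an ISRE, the shared ISRE of a divergent gene pair, and the GAS of IRF1, the one member of the 43 whose level was below NC with both siRNAs. Capitals mark the match and each window is written along its gene's own strand.
IFIT1 ISRE: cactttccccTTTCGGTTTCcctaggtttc
ISG15 ISRE: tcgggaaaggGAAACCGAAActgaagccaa
IFI6 ISRE: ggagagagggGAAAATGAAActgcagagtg
IFI27 ISRE: cggtttcctgGAAAATGAAAcctatctcat
IFITM3 ISRE: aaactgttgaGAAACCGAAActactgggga
ISG20 ISRE: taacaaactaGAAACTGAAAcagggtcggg
DDX60 ISRE: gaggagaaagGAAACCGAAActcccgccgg
PARP9 ISRE: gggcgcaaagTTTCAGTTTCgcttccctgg
DTX3L ISRE: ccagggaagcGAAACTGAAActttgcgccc
IRF1 GAS: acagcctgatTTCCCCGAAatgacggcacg

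The IFIT1 window lies at chr10:89392510-89392539 on the plus strand, that of ISG15 at chr1:1013380-1013409 on the plus strand and that of IFI6 at chr1:27672288-27672317 on the minus strand. The IFI27 window lies at chr14:94110631-94110660 and the ISG20 window at chr15:88638937-88638966, both on the plus strand. The windows of IFITM3 (chr11:320876-320905), DDX60 (chr4:168318786-168318815) and IRF1 (chr5:132490878-132490907) are on the minus strand. PARP9 and DTX3L face away from each other and share 1 window at chr3:122564322-122564351, read on opposite strands. IRF1 held a GAS match and no ISRE match in its window, and a match to such short letters is a description and not a measured binding site. The median log2 difference between siFAT1-1 and siFAT1-2 was 1.36 over the 24 genes with an ISRE and 1.19 over the 13 without, and the other 6 members had no promoter entry and are in neither group.

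The 43 genes moved largely together from library to library. As a measure of their common level, the log2 CPM of each gene was taken relative to its NC mean in the same line and averaged over the 43 genes. In HN6 this mean level was -0.43 and 0.43 with NC, 1.56 and 1.02 with siFAT1-1, and -1.57 and 0.58 with siFAT1-2. In HN30 it was -0.63 and 0.63 with NC, 1.00 and 1.22 with siFAT1-1, and -1.87 and 0.29 with siFAT1-2. In both lines the siFAT1-1 libraries were the highest, the first siFAT1-2 library was the lowest, and the second siFAT1-2 library lay between the NC libraries in HN30 and just above them in HN6. The share of all counts taken by the 43 genes ran from 0.202% in HN30 siFAT1-2 repeat 1 to 1.08% in HN6 siFAT1-1 repeat 1. Among the 6 HN6 libraries, siFAT1-1 repeat 1 was the highest for 32 of the 43 genes (12.4% of all genes) and siFAT1-2 repeat 1 the lowest for 36 (25.6% of all genes). Among the 6 HN30 libraries, siFAT1-1 repeat 2 was the highest for 34 (12.3% of all genes) and siFAT1-2 repeat 1 the lowest for 39 (24.7% of all genes). In bulk RNA such as this, fewer cells expressing a gene and less of its RNA per cell cannot be told apart.

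**Figure D1:**
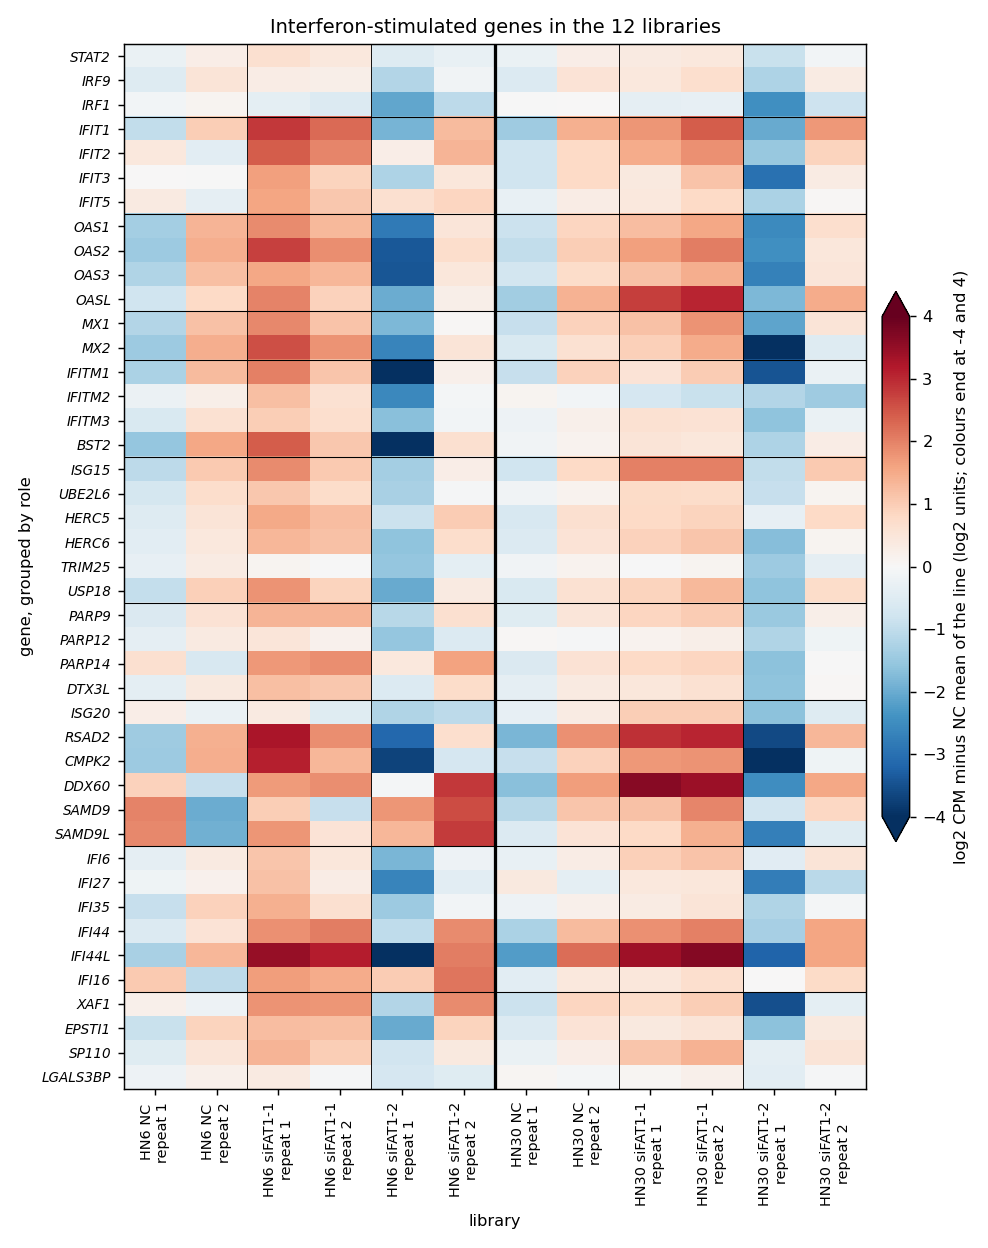
Heat map of the 43 interferon-stimulated genes (vertical axis, grouped by role) in the 12 libraries (horizontal axis), coloured by log2 CPM relative to the NC mean of the same line. The siFAT1-1 columns are mostly above NC and the siFAT1-2 repeat 1 columns mostly below it, while siFAT1-2 repeat 2 resembles NC.

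**Figure D2:**
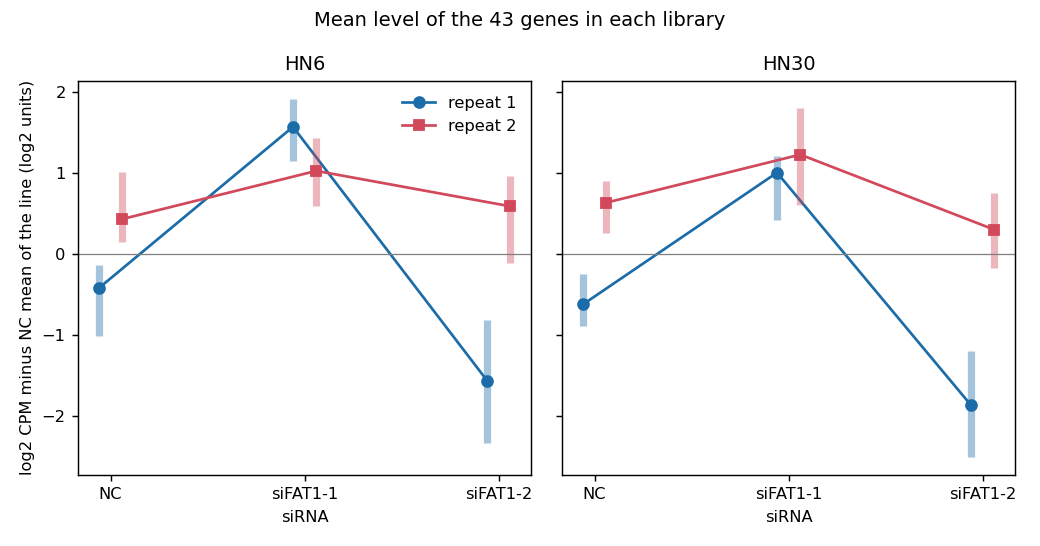
Mean level of the 43 genes in each library (vertical axis, log2 CPM relative to the NC mean of the line) by line and siRNA (horizontal axis), each point being 1 library. The siFAT1-1 libraries sit between 1.00 and 1.56, above all NC libraries, and the siFAT1-2 libraries spread from -1.87 to 0.58.

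The repeats of NC and siFAT1-2 differed widely for these genes. In HN6 NC the median absolute log2 difference between repeats was 1.30 over the 43 genes and 0.494 over all genes. In HN6 siFAT1-2 it was 1.75 over the 43 genes and 0.461 over all, and in HN30 siFAT1-2 it was 1.73 and 0.354. HN30 NC gave 1.11 against 0.327. The siFAT1-1 repeats were much closer, at 0.457 for the 43 genes in HN6 and 0.197 in HN30, against 0.229 and 0.147 over all genes. The direction was shared by most of the genes: repeat 2 was the higher in 33 of 43 genes in HN6 NC, 43 in HN6 siFAT1-2, 39 in HN30 NC, 38 in HN30 siFAT1-1 and 42 in HN30 siFAT1-2, but in only 4 in HN6 siFAT1-1. Over all genes, the share higher in repeat 2 was between 48.6% and 53.1% in every condition. With a prior count of 2, the widest pairs were IFI44L with siFAT1-2 in HN6 (repeat 2 higher by 6.09 on the log2 scale) and CMPK2 with siFAT1-2 in HN30 (higher by 5.46). With a prior count of 0.5, BST2 with siFAT1-2 in HN6, which had 0 counts in repeat 1, was the widest there (7.97), and CMPK2 remained so in HN30 (5.55). What differed between the 2 times was not recorded in the labels.

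**Figure D3:**
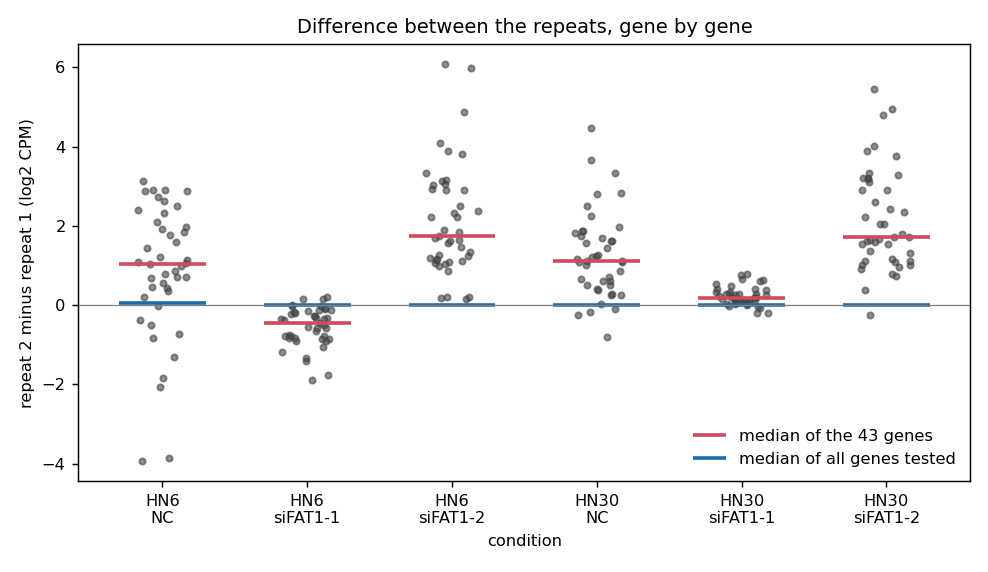
Difference between repeats (repeat 2 minus repeat 1, log2 CPM, vertical axis) in each of the 6 conditions (horizontal axis), with 1 point per interferon-stimulated gene. Lines mark the median of the 43 genes and the median of all genes tested. All 43 genes were higher in repeat 2 of HN6 siFAT1-2, whereas 4 of 43 were in HN6 siFAT1-1.

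In HN6 NC, 10 of the 43 genes went the other way and were lower in repeat 2. The lowest were SAMD9 (-3.95, log2 of repeat 2 over repeat 1) and SAMD9L (-3.87), neighbouring genes with transcripts of 36.04% and 38.49% GC. IFI16 (-2.07), DDX60 (-1.83), PARP14 (-1.30), IFIT2 (-0.84) and IFIT5 (-0.73) followed. ISG20 (-0.51, at 52.68% GC), XAF1 (-0.38) and IFIT3 (-0.02) were the others. Across the transcriptome, this pair of libraries showed a shift with GC content. With all genes in 4 bins of rising GC content, the median difference was -0.83 in the lowest bin (30.73% to 42% GC). It was 0.08, 0.30 and 0.23 in the next 3. The 10 members in the lowest bin had a median of -0.78, and the 18 members in the third had a median of 1.51. The members did not all follow GC content: 4 of the 10 in the lowest bin were higher in repeat 2. These were RSAD2 (2.87), IFI44L (2.62), IFIT1 (1.96) and IFI44 (1.07). Levels of the members with little GC in HN6 NC, and every comparison with them, carry this difference, whose part in those results was not tested gene by gene.

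**Figure D4:**
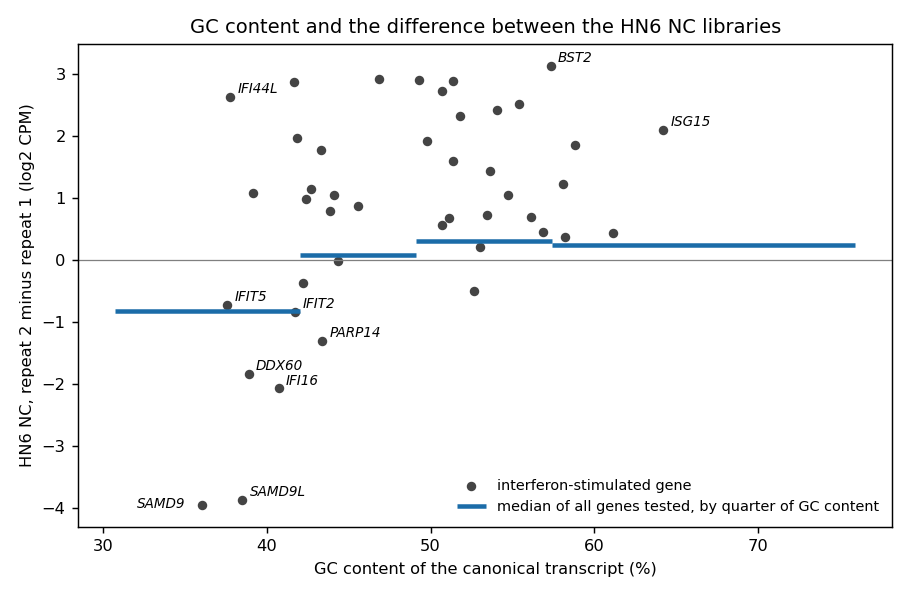
Difference between the 2 NC repeats in HN6 (repeat 2 minus repeat 1, log2 CPM, vertical axis) against transcript GC content (percent, horizontal axis) for the 43 interferon-stimulated genes. Horizontal lines give the median of all genes tested in each bin of GC content. SAMD9 and SAMD9L, at 36.04% and 38.49% GC, lie lowest among the members at -3.95 and -3.87.

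With siFAT1-1, 42 of the 43 genes had a fitted log2 fold change above 0 against NC across the lines (49.6% of all genes), with a median of 0.95 against 0.00 over all genes. IRF1 was the exception, at -0.40. None of the 43 passed an adjusted p of 0.05 (1.16% of all genes were called higher and 2.09% lower), by the edgeR quasi-likelihood test with Benjamini-Hochberg correction, the smallest adjusted p being 0.0573 for SP110. At an unadjusted p under 0.05, 15 were higher (8.81% of all genes), and 11 of these also had a log2 fold change above 1 (3.23% of all genes): IFIT1, IFIT2, OASL, ISG15, HERC5, HERC6, PARP9, PARP14, DDX60, IFI44 and SP110. DESeq2 called 3 and limma-voom 1 (8.76% and 3.98% of all genes in either direction). With the repeat as a block within each line, 4 were called (1.09% of all genes): IFIT1 (log2 fold change 2.62, adjusted p = 0.0469), IFIT2 (1.92, adjusted p = 0.0326), IFI44 (2.08, adjusted p = 0.0492) and SP110 (1.24, adjusted p = 0.0277). The block assumes a repeat effect shared by the libraries of a line. In HN6 only 10 of the 43 genes deviated the same way in NC and siFAT1-1, so this did not hold for most members there. All results with the block carry that limit. Leaving out HN6 NC repeat 2 (5.06% of all genes called in either direction) or HN6 siFAT1-2 repeat 1 (3.85%) gave 1 call, SP110. Leaving out HN30 NC repeat 2 (2.08%) or HN30 siFAT1-2 repeat 1 (3.27%) gave 1 call, IFIT2. Libraries could also be compared with NC of the same line and repeat. In those 4 pairs, siFAT1-1 was the higher for 40 genes in HN6 repeat 1, 30 in HN6 repeat 2, 41 in HN30 repeat 1 and 39 in HN30 repeat 2. Of all genes, 50.2%, 48.5%, 49.5% and 49.0% were higher in these pairs, in the same order. In all 4 pairs, 26 of the 43 genes were higher (14.4% of all genes). For 24 genes all siFAT1-1 libraries lay above both NC libraries in both lines (10.2% of all genes).

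With siFAT1-2, the median log2 fold change against NC was -0.40 over the 43 genes and 0.00 over all genes. IRF1 (log2 fold change -1.44, SE 0.30, adjusted p = 0.0127) and ISG20 (-1.09, SE 0.32, adjusted p = 0.0439) fell by the edgeR quasi-likelihood test with Benjamini-Hochberg correction, 2 of 43 genes against 7.47% of all genes called lower, and no member rose (4.35% of all genes). TRIM25 was called as well with the repeat block (7.52% of all genes called lower), at an adjusted p of 0.0243 in place of 0.0573. At an unadjusted p under 0.05, 8 members were lower (16.0% of all genes). Both counts are near the background, and nothing particular to these genes is read from them. DESeq2 called 5 and limma-voom 4 (19.4% and 13.8% of all genes in either direction). IRF1 kept its call in all 22 alternative fits, with adjusted p from 0.000187 to 0.0352. ISG20 lost its call in 10 of the 12 fits that left out 1 library, all but those without HN6 siFAT1-1 repeat 2 and HN30 siFAT1-2 repeat 2. Within line and repeat, siFAT1-2 was below NC for 42 genes in HN6 repeat 1, 26 in HN6 repeat 2, 40 in HN30 repeat 1 and 31 in HN30 repeat 2. Of all genes, 50.2%, 40.4%, 49.7% and 47.3% were above NC in these pairs, in the same order. With 17 of the 43 genes above NC in HN6 repeat 2, that pair was near its background. In all 4 pairs, 19 genes were lower (21.5% of all genes). For IRF1, TRIM25, PARP12, ISG20 and IFI27, every siFAT1-2 library lay below both NC libraries in both lines (12.9% of all genes). Without the first siFAT1-2 library of both lines, a fit chosen after the data were seen, the median turned to 0.23.

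The 2 siRNAs differed most from each other. That difference is not taken against NC, but the NC libraries enter the filter, the scaling, the line term and the estimate of the spread. The median log2 difference, siFAT1-1 minus siFAT1-2, was 1.33 over the 43 genes and -0.02 over all genes. By the edgeR quasi-likelihood test with Benjamini-Hochberg correction, 13 of the 43 were higher with siFAT1-1 (10% of all genes) and none was lower (7.39% of all genes): STAT2, IRF1, IFITM3, UBE2L6, TRIM25, PARP12, ISG20, CMPK2, IFI6, IFI27, IFI35, SP110 and LGALS3BP. With the repeat block the count was 32 (11.2% of all genes) and the median 1.64. In HN6 only 4 of the 43 genes deviated the same way in siFAT1-1 and siFAT1-2, so the shared repeat effect did not hold for most members there. Limma-voom called 30 and DESeq2 25, where they called 19.3% and 25.9% of all genes in either direction. Within line and repeat, siFAT1-1 was the higher for 42, 38, 43 and 42 of the 43 genes (HN6 repeats 1 and 2, then HN30 repeats 1 and 2). Of all genes, 50.3%, 53.3%, 49.7% and 49.1% were higher, in the same order. In all 4 pairs, 38 of the 43 were higher (23.5% of all genes). The median difference in those pairs was 2.86, 0.60, 2.499 and 0.85, so that repeat 1 gave the wider gap in both lines. For 36 genes, both siFAT1-1 libraries lay above both siFAT1-2 libraries in both lines (18.2% of all genes). Without both siFAT1-2 repeat 1 libraries, 1 gene, IFI27, was called and the median was 0.71. The count was 2 without HN6 siFAT1-1 repeat 1 (9.47% of all genes called in either direction). It was 3 without HN30 siFAT1-1 repeat 2 (7.11%) or HN30 siFAT1-2 repeat 1 (9.56%). It was 4 without HN30 siFAT1-1 repeat 1 (7.23%) and 7 without HN6 siFAT1-2 repeat 1 (13.4%). Of the 12 fits that left out 1 library, STAT2 and ISG20 lost their call in 0, IFI27 in 1, SP110 in 3, IFITM3, PARP12 and IFI6 in 4, UBE2L6 in 5, IRF1 in 6, CMPK2 in 7, TRIM25 and LGALS3BP in 8, and IFI35 in 9. Summed squamous epithelial markers moved with the siRNA as well, at 5120.0 to 6013 CPM with siFAT1-1 and 1973 to 2824 CPM with siFAT1-2 in HN6, where NC had 2439.7 to 3675 CPM. In HN30 they were at 3074 to 3220.1 CPM and 1242 to 1645 CPM, with 2005 to 2163 CPM for NC. Summed endothelial markers, far scarcer, had the same order: 6.63 to 7.87 CPM with siFAT1-1, 1.16 to 4.68 with NC and 0.609 to 1.74 with siFAT1-2 in HN6, and 2.90 to 3.40, 0.651 to 0.832 and 0.202 to 0.524 CPM in HN30. Leukocyte markers were ordered likewise, at 6.05 to 6.48, 4.24 to 4.96 and 2.66 to 4.18 CPM in HN6 and 12.3 to 15.3, 8.91 to 9.65 and 4.58 to 8.06 CPM in HN30. Fibroblast markers were at 88.4 to 112 CPM with siFAT1-1, 73.7 to 74.2 with NC and 69.2 to 164 with siFAT1-2 in HN6, and at 41.2 to 50.01, 12.5 to 21.9 and 31.7 to 38.6 CPM in HN30. The part of these marker levels in the members' differences was not tested.

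Taking both siRNAs as 1 knockdown group of 8 libraries against 4 of NC, none of the 43 genes was called by the edgeR quasi-likelihood test with Benjamini-Hochberg correction (0.295% of all genes were called higher and 0.252% lower), and DESeq2 and limma-voom also called 0. IFIT2 and IFI16 were higher at an unadjusted p under 0.05 (6.77% of all genes) and IRF1 lower (7.75%), and the smallest adjusted p was 0.294, for IRF1. The fitted change was above 0 for 35 genes (52.0% of all genes) with a median of 0.51. IRF1 was the only member of the 43 whose 4 knockdown libraries in each line all lay below both NC libraries (3.15% of all genes). No member had all of them above NC in both lines (2.29% of all genes). The siFAT1-1 and siFAT1-2 comparisons share their NC libraries, so their values are set side by side without a measure of likeness.

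**Figure D5:**
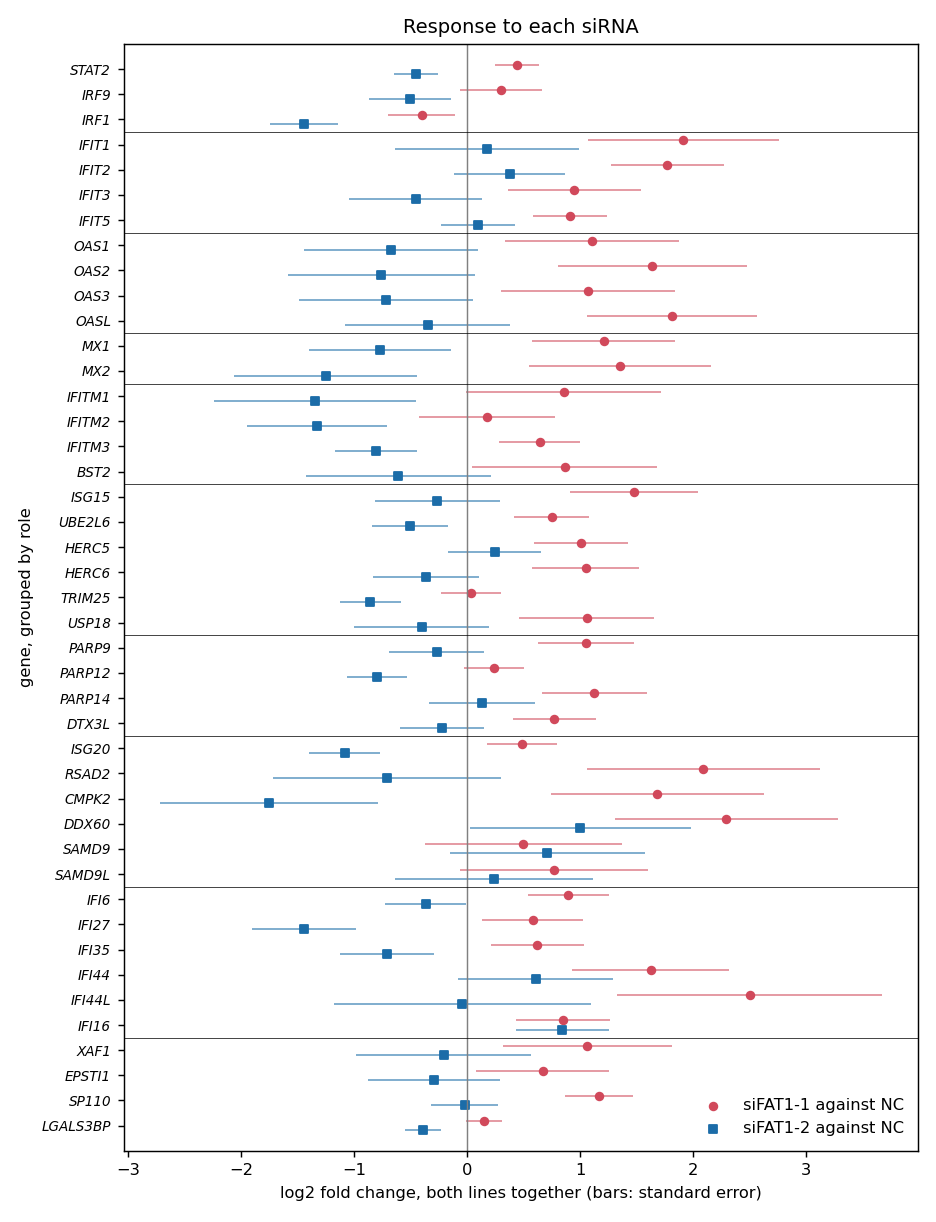
Fitted log2 fold changes against NC (horizontal axis) of the 43 genes (vertical axis, by role) for siFAT1-1 and siFAT1-2 across both lines, with bars of 1 standard error. The siFAT1-1 points lie above 0 for 42 of 43 genes, and IRF1 lies below 0 with both siRNAs.

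The first class holds the transcription factors. STAT2 and IRF9 are subunits of ISGF3, of which IRF9 contacts the ISRE and STAT2 drives transcription, and IRF1 is a factor induced strongly by interferon gamma through its GAS. STAT2 in HN6 was at 148 and 219 CPM with NC, 279 and 242 with siFAT1-1 and 126 and 146 with siFAT1-2. STAT2 in HN30 was at 80.4 and 114 CPM with NC, 122 and 129 with siFAT1-1 and 51.3 and 88.5 with siFAT1-2. In both lines the siFAT1-1 libraries of STAT2 were above NC, while siFAT1-2 lay just below NC in HN6 and overlapped it in HN30. STAT2 was higher with siFAT1-1 than with siFAT1-2 (log2 difference 0.89, SE 0.20, adjusted p = 0.0105, edgeR quasi-likelihood test with Benjamini-Hochberg correction). IRF9 in HN6 was at 94.1 and 195 CPM with NC, 165 and 158 with siFAT1-1 and 59.9 and 124 with siFAT1-2. IRF9 in HN30 was at 34.9 and 75.1 CPM with NC, 68.4 and 81.9 with siFAT1-1 and 21.8 and 63.6 with siFAT1-2. IRF9 with either siRNA overlapped NC in both lines, though siFAT1-1 stayed above siFAT1-2 in each, and its reads cannot be separated from those of a readthrough transcript that covers 93.1% of it. IRF1 in HN6 was at 141 and 163 CPM with NC, 116 and 105 with siFAT1-1 and 35.6 and 73.7 with siFAT1-2. IRF1 in HN30 was at 203 and 208 CPM with NC, 159.6 and 164 with siFAT1-1 and 37.6 and 117 with siFAT1-2. IRF1 was below NC in every knockdown library, lowest in the first siFAT1-2 library of each line. Its fitted level with siFAT1-2 was 0.367 of that with NC, and it was higher with siFAT1-1 than with siFAT1-2 by 1.04 (SE 0.30, adjusted p = 0.0333).

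The 4 IFIT proteins bind foreign RNA ends and block its translation. IFIT1 in HN6 was at 28.1 and 109 CPM with NC, 390.5 and 265 with siFAT1-1 and 15.1 and 133 with siFAT1-2. IFIT1 in HN30 was at 16.8 and 120.3 CPM with NC, 154 and 244 with siFAT1-1 and 10.99 and 149 with siFAT1-2. IFIT1 with siFAT1-1 lay above NC in both lines, whereas the siFAT1-2 repeats straddled NC. Its log2 fold change with siFAT1-1 was 1.91 (SE 0.84) across the lines. IFIT2 in HN6 was at 21.8 and 12.1 CPM with NC, 87.1 and 63.4 with siFAT1-1 and 19.5 and 42.1 with siFAT1-2. IFIT2 in HN30 was at 32.2 and 99.1 CPM with NC, 158 and 199.6 with siFAT1-1 and 19.6 and 105 with siFAT1-2. For IFIT2 the siFAT1-1 libraries were again the highest in each line, and in HN6 it had one of the 3 largest responses to siFAT1-1 among members (2.15, SE 0.76). IFIT5 in HN6 was at 30.03 and 18.1 CPM with NC, 69.7 and 49.4 with siFAT1-1 and 36.6 and 42.4 with siFAT1-2. IFIT5 in HN30 was at 52.7 and 80.2 CPM with NC, 86.6 and 112 with siFAT1-1 and 26.8 and 67.1 with siFAT1-2. IFIT5 in HN6 was lower with NC than in any knockdown library, and it was the only member for which both siFAT1-2 repeats exceeded both NC libraries there (20.8% of all genes did so). The class medians were 1.36 with siFAT1-1 and 0.13 with siFAT1-2 (log2 fold change against NC). None of the 4 was called between the siRNAs, and 3 were with the repeat block, IFIT1 at a difference of 2.67 (adjusted p = 0.0182). The IFIT genes are similar in sequence and lie close together, IFIT1 and IFIT5 being 8080 bases apart, so some reads may have been shared.

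The OAS enzymes make short oligoadenylates on double-stranded RNA and so switch on RNase L, while OASL lacks that activity and acts on RNA sensing. OASL in HN6 was at 9.05 and 27.5 CPM with NC, 62.3 and 30.1 with siFAT1-1 and 3.93 and 18.7 with siFAT1-2. OASL in HN30 was at 10.2 and 71.5 CPM with NC, 184 and 223 with siFAT1-1 and 7.76 and 76.2 with siFAT1-2. OASL ranged in HN30 from 7.76 CPM with siFAT1-2 to 223 CPM with siFAT1-1, and its siFAT1-1 repeats stood above all others in both lines. It had one of the 3 largest responses to siFAT1-1 in HN30 (2.31, SE 1.16). For OAS1, OAS2 and OAS3 as well, siFAT1-2 repeat 1 was the lowest library in each line. OAS2 in HN6 spanned 9.44 to 653 CPM, a ratio of 69.2 between its highest and lowest library. The class median was 1.37 with siFAT1-1 and -0.70 with siFAT1-2, and the 4 genes were called between the siRNAs with the block and not without it.

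MX1 and MX2 are dynamin-like GTPases that trap incoming viral ribonucleoprotein and capsids. MX1 in HN6 was at 138 and 690.3 CPM with NC, 1175 and 681 with siFAT1-1 and 89.2 and 320.2 with siFAT1-2. MX1 in HN30 was at 126 and 449 CPM with NC, 540.0 and 831 with siFAT1-1 and 55.5 and 339 with siFAT1-2. MX1 with siFAT1-1 was above NC in HN30, and in HN6 its second siFAT1-1 library fell just under the second NC library. The difference between siRNAs was 1.98 (adjusted p = 0.0532 by the edgeR quasi-likelihood test with Benjamini-Hochberg correction) without the block and 2.49 (adjusted p = 0.0086) with it. MX2 in HN6 was at 13.5 and 101 CPM with NC, 219 and 128 with siFAT1-1 and 5.93 and 53.2 with siFAT1-2. MX2 in HN30 was at 18.7 and 44.3 CPM with NC, 56.3 and 80.8 with siFAT1-1 and 1.33 and 20.3 with siFAT1-2. MX2 was the more variable of the pair, with the lowest siFAT1-2 values in both lines in repeat 1, and its response to siFAT1-2 in HN30 was among the 3 largest (-1.54, SE 1.26).

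The membrane proteins restrict entry and release of viruses: the IFITM proteins block fusion in endosomes and BST2 (tetherin) holds budding particles. IFITM3 in HN6 was at 191 and 442 CPM with NC, 571 and 458 with siFAT1-1 and 90.7 and 268 with siFAT1-2. IFITM3 in HN30 was at 210.2 and 276 CPM with NC, 365 and 361 with siFAT1-1 and 78.1 and 200.5 with siFAT1-2. IFITM3 was ordered siFAT1-1, NC, siFAT1-2 in HN30 with no overlap, and in HN6 siFAT1-2 repeat 2 fell between the NC libraries. IFITM3 differed between the siRNAs by 1.45 (SE 0.37, adjusted p = 0.0202, edgeR quasi-likelihood test with Benjamini-Hochberg correction). IFITM2 in HN6 was at 0.956 and 1.32 CPM with NC, 2.65 and 1.75 with siFAT1-1 and 0.138 and 1.05 with siFAT1-2. IFITM2 in HN30 was at 0.368 and 0.302 CPM with NC, 0.187 and 0.154 with siFAT1-1 and 0.115 and 0.0873 with siFAT1-2. IFITM2 was the scarcest member, with 3 to 117 counts per library, and it lies beside IFITM1 and IFITM3, which are so alike that reads may be assigned to the wrong copy. BST2 in HN6 was at 0.751 and 6.99 CPM with NC, 12.7 and 4.97 with siFAT1-1 and 0 and 3.64 with siFAT1-2. BST2 in HN30 was at 129 and 157 CPM with NC, 203 and 193 with siFAT1-1 and 60.3 and 175 with siFAT1-2. BST2 was lower in each HN6 library than in any HN30 library, and siFAT1-2 repeat 1 in HN6 held 0 counts (a count of 0 allows up to 0.0831 CPM there). IFITM1 ranged from 0.665 to 74.4 CPM in HN6, lowest in siFAT1-2 repeat 1 and highest in siFAT1-1 repeat 1. The class median was 0.75 with siFAT1-1 and -1.07 with siFAT1-2.

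ISG15 is a ubiquitin-like protein that is attached to others by UBE2L6 (its conjugating enzyme), HERC5 and TRIM25 (ligases) and removed by USP18, which also inhibits the type I interferon receptor. HERC6 is a close relative of HERC5. ISG15 in HN6 was at 77.3 and 330.0 CPM with NC, 592 and 332 with siFAT1-1 and 61.7 and 193 with siFAT1-2. ISG15 in HN30 was at 167 and 494 CPM with NC, 1156 and 1159 with siFAT1-1 and 144 and 598 with siFAT1-2. ISG15 was above NC in both lines with siFAT1-1, though in HN6 its second siFAT1-1 library barely exceeded the second NC library. In HN30 the siFAT1-2 repeats of ISG15 spread from below to above NC. It differed between siRNAs by 1.74 (adjusted p = 0.0526) without the block and by 2.16 (adjusted p = 0.0143) with it, by the edgeR quasi-likelihood test with Benjamini-Hochberg correction. UBE2L6 in HN6 was at 70.7 and 191 CPM with NC, 246 and 192 with siFAT1-1 and 47.8 and 113 with siFAT1-2. UBE2L6 in HN30 was at 76.2 and 90.7 CPM with NC, 142 and 138 with siFAT1-1 and 44.1 and 89.5 with siFAT1-2. The second siFAT1-1 library of UBE2L6 in HN6 barely exceeded the second NC library, and its difference between the siRNAs was 1.26 (SE 0.34, adjusted p = 0.0263). TRIM25 in HN6 was at 289 and 459.8 CPM with NC, 393 and 364 with siFAT1-1 and 126 and 275 with siFAT1-2. TRIM25 in HN30 was at 363 and 434 CPM with NC, 393 and 430.3 with siFAT1-1 and 144 and 308 with siFAT1-2. TRIM25 had siFAT1-1 levels inside the NC range in both lines, but siFAT1-2 levels below NC in both lines. It differed between siRNAs by 0.89 (SE 0.27, adjusted p = 0.0404). Of these 6 genes, 2 were called between siRNAs and 5 with the block, HERC5 being the exception.

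PARP12 and PARP14 transfer ADP-ribose to proteins, PARP9 belongs to the same family, and DTX3L is the ubiquitin ligase partner of PARP9. PARP12 in HN6 was at 148 and 243 CPM with NC, 264 and 216 with siFAT1-1 and 64.7 and 129 with siFAT1-2. PARP12 in HN30 was at 118 and 109.9 CPM with NC, 125 and 133 with siFAT1-1 and 49.9 and 101 with siFAT1-2. PARP12 with siFAT1-2 was below NC in both lines, and it differed between siRNAs by 1.04 (SE 0.27, adjusted p = 0.0225, edgeR quasi-likelihood test with Benjamini-Hochberg correction). PARP9 and DTX3L, which share the window printed above, had siFAT1-1 levels above NC in both lines and siFAT1-2 levels below or within the NC range in HN30. PARP14 in HN6 was lowest with NC, in repeat 2 (39.8 CPM). The class median was 0.91 with siFAT1-1 and -0.25 with siFAT1-2.

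A further class acts on RNA and nucleotides: ISG20 is an RNA exonuclease, RSAD2 (viperin) makes a chain-terminating nucleotide, CMPK2 is a mitochondrial nucleotide kinase, DDX60 is a helicase of RNA sensing, and SAMD9 and SAMD9L restrict poxviruses and translation. ISG20 in HN6 was at 20.1 and 14.1 CPM with NC, 21.7 and 12.1 with siFAT1-1 and 7.31 and 8.12 with siFAT1-2. ISG20 in HN30 was at 12.8 and 20.2 CPM with NC, 31.6 and 32.0 with siFAT1-1 and 5.16 and 11.2 with siFAT1-2. ISG20 with siFAT1-2 was below NC in all 4 libraries, and in HN30 its siFAT1-1 libraries were above NC. ISG20 differed between the siRNAs by 1.57 (SE 0.32, adjusted p = 0.00773, edgeR quasi-likelihood test with Benjamini-Hochberg correction). CMPK2 in HN6 was at 1.02 and 7.92 CPM with NC, 25.1 and 7.26 with siFAT1-1 and 0.166 and 1.77 with siFAT1-2. CMPK2 in HN30 was at 18.1 and 66.1 CPM with NC, 115 and 119 with siFAT1-1 and 0.634 and 30.4 with siFAT1-2. CMPK2 had the widest range of the class in HN30, at a ratio of 188 between its highest and lowest library, and its difference between siRNAs was 3.44 (SE 1.02, adjusted p = 0.0383). RSAD2 lies beside CMPK2 on the opposite strand and overlaps 11.3% of it, and RSAD2 moved in the same order of libraries from 3.20 to 329.8 CPM in HN30. DDX60 in HN6 was at 12.3 and 3.41 CPM with NC, 21.4 and 23.8 with siFAT1-1 and 6.18 and 46.1 with siFAT1-2. DDX60 in HN30 was at 15.7 and 158 CPM with NC, 616 and 537 with siFAT1-1 and 8.88 and 144 with siFAT1-2. DDX60 in HN30 was highest with siFAT1-1 (log2 fold change 2.73, SE 1.36, among the 3 largest there) and in HN6 siFAT1-2 repeat 2 exceeded all others. SAMD9L in HN6 was at 14.3 and 0.930 CPM with NC, 12.7 and 5.51 with siFAT1-1 and 9.47 and 26.2 with siFAT1-2. SAMD9L in HN30 was at 53.1 and 114 CPM with NC, 135 and 207 with siFAT1-1 and 11.7 and 54.9 with siFAT1-2. SAMD9L in HN6 was low with the second NC repeat, as given above, and its siFAT1-1 libraries overlapped NC there. For SAMD9 the difference between the siRNAs was -0.21 (adjusted p = 0.896), one of the members not called with the block.

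The genes named IFI encode proteins of varied or poorly known function. IFI6 in HN6 was at 334 and 541 CPM with NC, 925 and 585 with siFAT1-1 and 120.0 and 367 with siFAT1-2. IFI6 in HN30 was at 50.8 and 76.8 CPM with NC, 121 and 138 with siFAT1-1 and 45.8 and 89.7 with siFAT1-2. IFI6, a mitochondrial and endoplasmic reticulum protein that limits cell death and flavivirus replication, differed between the siRNAs by 1.26 (SE 0.36, adjusted p = 0.0336, edgeR quasi-likelihood test with Benjamini-Hochberg correction). IFI27 in HN6 was at 74.5 and 95.7 CPM with NC, 189.6 and 104 with siFAT1-1 and 13.4 and 62.9 with siFAT1-2. IFI27 in HN30 was at 6.71 and 3.81 CPM with NC, 6.73 and 6.91 with siFAT1-1 and 0.692 and 2.39 with siFAT1-2. IFI27, a related protein, was below NC with siFAT1-2 in all 4 libraries, differed between siRNAs by 2.03 (SE 0.47, adjusted p = 0.0135), and lost that call in 1 of 22 alternatives, without HN6 siFAT1-1 repeat 1. IFI35 in HN6 was at 32.6 and 117 CPM with NC, 166 and 96.3 with siFAT1-1 and 22.7 and 57.3 with siFAT1-2. IFI35 in HN30 was at 19.0 and 24.7 CPM with NC, 27.0 and 31.0 with siFAT1-1 and 9.31 and 20.8 with siFAT1-2. For IFI35, a leucine zipper protein, NC and siFAT1-1 overlapped in HN6, and the siRNAs differed by 1.33 (SE 0.42, adjusted p = 0.0472). IFI44L in HN6 was at 2.32 and 14.6 CPM with NC, 65.9 and 52.3 with siFAT1-1 and 0.305 and 24.6 with siFAT1-2. IFI44L in HN30 was at 0.283 and 7.51 CPM with NC, 16.8 and 20.4 with siFAT1-1 and 0.115 and 4.77 with siFAT1-2. IFI44L, a relative of its neighbour IFI44, had the largest fitted response to siFAT1-1 of all 43 genes (2.499, SE 1.17) and, with siFAT1-2 in HN6, widely separated repeats. IFI16 in HN6 was at 35.5 and 8.40 CPM with NC, 55.0 and 48.8 with siFAT1-1 and 35.4 and 75.7 with siFAT1-2. IFI16 in HN30 was at 56.2 and 102 CPM with NC, 103 and 121 with siFAT1-1 and 76.9 and 128 with siFAT1-2. IFI16, a nuclear DNA sensor, had a difference of 0.00 between the siRNAs (adjusted p = 0.996), and it was lowest in the second HN6 NC library.

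The remaining members are XAF1, an antagonist of apoptosis inhibitors, EPSTI1, SP110, a nuclear body protein, and LGALS3BP, a secreted glycoprotein. SP110 in HN6 was at 24.5 and 48.3 CPM with NC, 88.4 and 68.6 with siFAT1-1 and 20.1 and 45.2 with siFAT1-2. SP110 in HN30 was at 23.4 and 33.3 CPM with NC, 59.9 and 72.5 with siFAT1-1 and 21.3 and 39.9 with siFAT1-2. SP110 had all 4 siFAT1-1 libraries above NC and the smallest adjusted p among members for siFAT1-1 against NC. It differed between siRNAs by 1.19 (SE 0.30, adjusted p = 0.0203, edgeR quasi-likelihood test with Benjamini-Hochberg correction). LGALS3BP in HN6 was at 1066 and 1431 CPM with NC, 1577 and 1203 with siFAT1-1 and 782 and 883 with siFAT1-2. LGALS3BP in HN30 was at 790.0 and 702 CPM with NC, 794 and 851 with siFAT1-1 and 560.2 and 727 with siFAT1-2. LGALS3BP, among the most abundant members, had the smallest ratio of highest to lowest library in both lines (2.02 in HN6 and 1.52 in HN30), and its difference between siRNAs was 0.54 (SE 0.16, adjusted p = 0.0372). XAF1 and EPSTI1 were not called with or without the block. XAF1 overlaps other annotated genes over 74.2% of its transcript, and strand was not stated for the counting.

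Within single lines no member was called against NC by the edgeR quasi-likelihood test with Benjamini-Hochberg correction, in any of 4 comparisons. In HN6, 0.0144% of all genes were called higher and 0.0936% lower with siFAT1-1, and 0.158% and 0.432% with siFAT1-2. For HN30, siFAT1-1 gave shares of 0.547% higher and 0.915% lower, and siFAT1-2 gave 0.0432% and 0.130%. At an unadjusted p under 0.05, IFIT2, IFIT5, PARP14 and SP110 were higher with siFAT1-1 in HN6 (3.33% of all genes) and SP110 in HN30 (7.68%). With siFAT1-2, IRF1, PARP12, ISG20 and LGALS3BP were lower by that measure in HN6 (11.9% of all genes) and IRF1, ISG20 and IFI27 in HN30 (9.94%). DESeq2 called 1 of these, IRF1 with siFAT1-2 in HN6. Counting libraries, 28 members in HN6 had both siFAT1-1 repeats above both NC libraries (17.7% of all genes) and 35 in HN30 (30.3% of all genes), whereas 7 in each line had both siFAT1-2 repeats below NC (24.1% of all genes in HN6 and 25.5% in HN30). The test of whether the response differed between the lines called no member for either siRNA (0% of all genes), and 0 by DESeq2 or limma-voom. At an unadjusted p under 0.05 there were also 0 members, against 1.93% of all genes with a higher and 1.97% with a lower response to siFAT1-1 in HN6, and 2.38% and 2.59% for siFAT1-2. Its median over the members, HN6 minus HN30, was 0.18 for siFAT1-1 and -0.01 for siFAT1-2. Both single-line medians for siFAT1-2 turned on 1 library: -0.68 in HN6 became 0.47 without NC repeat 2, and -0.54 in HN30 became 0.13 without siFAT1-2 repeat 1 or without NC repeat 2.

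The basal level of several members differed between the lines, but calls were no more frequent among them than among all genes. Nothing particular to these genes as a set is read from the counts of calls. With NC, IFI27 was 16.2 times higher in HN6 than in HN30 (log2 difference 4.02, SE 0.76, adjusted p = 0.00421) and IFI6 was 6.85 times higher (2.78, SE 0.54, adjusted p = 0.00486), by the edgeR quasi-likelihood test with Benjamini-Hochberg correction. STAT2 (0.92, adjusted p = 0.0404) and LGALS3BP (0.74, adjusted p = 0.0303) were also higher in HN6, so that 4 members were called higher against 16.9% of all genes. BST2 was lower in HN6 (-5.20, SE 1.45, adjusted p = 0.0222), as were SAMD9L (-3.46, adjusted p = 0.0425), IFI16 (-1.85, adjusted p = 0.0433) and IFIT5 (-1.47, adjusted p = 0.0287), 4 members against 15.7%. IFI6 and IFI27 kept their call in all 21 alternatives, while SAMD9L, IFI16 and IFIT5 are among the members that were lower in the second HN6 NC library than in the first. With a correction for GC content, chosen after the data were seen, BST2, SAMD9L, IFI6, IFI27 and IFI16 kept their call. STAT2, LGALS3BP and IFIT5 lost theirs in that fit. With the repeat block, IRF9 (higher, adjusted p = 0.0204) and IFIT2 (lower, adjusted p = 0.0403) were called as well, against 17.6% and 16.5% of all genes. Of the 8 calls, 2 remained in number without HN30 NC repeat 2, 3 without HN6 NC repeat 2, 4 without HN30 NC repeat 1 or either HN30 siFAT1-1 repeat, and 5 without either HN6 siFAT1-1 repeat. Per kilobase of transcript, the most abundant members with NC were LGALS3BP (567 CPM per kb), IFI6 (538) and IFITM3 (518) in HN6, and ISG15 (519 CPM per kb), IFITM3 (398) and LGALS3BP (339) in HN30. The median difference over the 43 genes, HN6 minus HN30, was 0.05.

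The other genes of the pathway were followed in a list of 57, of which 51 passed the filter. Between the siRNAs, 11 were higher with siFAT1-1 and 1 lower by the edgeR quasi-likelihood test with Benjamini-Hochberg correction (10% and 7.39% of all genes), and 17 and 1 with the repeat block (11.2% and 6.95%). Those higher included ZBP1, a nucleic acid sensor (log2 difference 3.45, adjusted p = 0.00239), GBP1, a GTPase induced by interferon gamma (2.55, adjusted p = 0.0038), and TAP1 and PSMB9 of antigen processing (1.26, adjusted p = 0.0141, and 1.49, adjusted p = 0.0295). PTPN2, a phosphatase that restrains JAK and STAT signalling, was lower (-0.97, adjusted p = 0.0118). Against NC, 1 gene fell with siFAT1-1, the receptor chain IFNAR2 (-0.77, adjusted p = 0.0245; 2.09% of all genes fell), and none rose (1.16%). With siFAT1-2, 6 fell (7.47% of all genes), including IFNAR2 (-0.62, adjusted p = 0.0319), TYK2 (-0.62, adjusted p = 0.0222) and the repressor IRF2 (-1.07, adjusted p = 0.00661), and 1 rose (4.35% of all genes), the receptor chain IFNGR1 (0.705, adjusted p = 0.0402). IFNAR1 and JAK1 were not called in any siRNA comparison.

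Transcripts of the interferons themselves were scarce, with at most 205 counts of any 1 of them in a library. IFNB1, IFNL1, IFNL2 and IFNL3 together had 6 and 57 counts with NC in HN6, 105 and 54 with siFAT1-1, and 0 and 10 with siFAT1-2. Scaled for library size, these were 0.205 and 1.61 CPM with NC, 2.38 and 1.72 with siFAT1-1, and 0 and 0.301 with siFAT1-2. In HN30 these 4 ligands had 2 and 26 counts with NC, 17 and 63 with siFAT1-1, and 2 and 24 with siFAT1-2. That was 0.0566 and 0.655 CPM with NC, 0.636 and 1.94 with siFAT1-1, and 0.0577 and 0.699 with siFAT1-2. In HN30 and with NC and siFAT1-2 in HN6 the second repeat held more counts of these 4 ligands than the first, as it did for most of the 43 genes, and in HN6 siFAT1-1 the first held more, again as for most members. IFNE, an epithelial type I interferon, had 0 counts in all HN6 libraries. IFNE in HN30 had 49 and 205 counts with NC, 105 and 106 with siFAT1-1 and 53 and 137 with siFAT1-2, so that siFAT1-1 lay inside the NC range. IFNA1 had 0 counts in HN6, and in HN30 it had 5 and 8 with NC, 21 and 23 with siFAT1-1 and 4 and 9 with siFAT1-2. IFNL2 and IFNL3 are near-identical, so their counts are uncertain one by one. IFNA2 and IFNG had 0 counts in all 12 libraries, and a count of 0 allows up to 3 counts per library. Whether these ligand counts bear on the members' levels was not tested.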

How the data were processed

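Poly(A) RNA of the 12 libraries was sequenced as paired reads on an Illumina platform. The authors discarded poor and duplicated reads, aligned what was left to hg38, and deposited whole-number counts per gene symbol for all libraries, without normalization. The labels name HISAT2 and featureCounts, with versions, annotation and strand setting not given in the sources used here, so overlapping genes and close copies cannot be separated. Of the symbols, 18278 matched the annotation directly and 756 through an older name.

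Counts were filtered (filterByExpr, minimum count 10), scaled by TMM and fitted with edgeR 4.0.16 in R 4.3.3, with Benjamini-Hochberg adjustment over 13887 genes. The comparison of both siRNAs together was fitted with line and knockdown as terms, and the separate siRNA comparisons with line and siRNA. The single-line, line and interaction comparisons were fitted with 6 condition means. Alternatives used DESeq2 1.42.0 and limma-voom 3.58.1. Fitted fold changes follow mean counts and so weigh high libraries more than a mean of log2 CPM (prior count 2). Every library's value was given for members with an adjusted p under 0.05 in any comparison, for the 3 largest responses to each siRNA in each line, and for IFIT1, ISG15, MX1, IFI6, STAT2, IRF9, IRF1 and IFITM3 as common readouts. Libraries with the same repeat number in a line carry the same time label, which was read as a pairing. The labels do not state that they were made together. The deviations of same-numbered libraries correlated at 0.0778 to 0.242 in HN6 and -0.0337 to 0.405 in HN30. In HN6, 10 members deviated the same way in NC and siFAT1-1, 33 in NC and siFAT1-2, and 4 in siFAT1-1 and siFAT1-2. In HN30 these counts were 36, 40 and 39. The replicate block assumes a repeat effect shared by the libraries of a line. In HN6 this did not hold for most members between siFAT1-1 and the other conditions. Members and lists were chosen with earlier results of these data known. Some genes are not reported here. The scripts were tested on simulated data. Sequences are from RefSeq, GRCh38.p14.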

Additional observations from a re-analysis of the deposited data

Results flagged for a closer look

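IFITM2 with siFAT1-1 went opposite ways in the 2 lines. Both siFAT1-1 repeats lay above both NC libraries in HN6 (log2 fold change 0.95) and below them in HN30 (-0.96). It was picked out by these signs alone, which are not a test. The test of the difference between the lines, run across all genes, gave 1.91 (SE 1.14, adjusted p = 1.00 by the edgeR quasi-likelihood test with Benjamini-Hochberg correction), so a difference was not shown. The gene had 3 to 117 counts per library and lies beside near-identical copies.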

How the results depend on the processing

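Each fit below changed 1 choice, apart from the replicate block with a GC correction. For siFAT1-1 against NC, with 0 members called, DESeq2's size factors gave 1 call (3.28% of all genes called in either direction), DESeq2 3 (8.76%), limma-voom 1 (3.98%), the replicate block 4 (2.96%), a GC correction 1 (5.07%), the block with GC correction 9 (6.02%), and leaving out both siFAT1-2 libraries of repeat 1 gave 2 (4.91%). For siFAT1-2 against NC, with 2 calls, DESeq2 gave 5 (19.4%), limma-voom 4 (13.8%), the GC correction 1 (8.73%) and leaving out both libraries 1 (1.73%). Between the siRNAs, with 13, DESeq2 gave 25 (25.9% of all genes), limma-voom 30 (19.3%), the block 32 (18.2%), the block with GC correction 34 (20.1%) and leaving out both libraries 1 (6.49%). For siFAT1-2 in HN6, with 0, DESeq2 gave 1. For HN6 against HN30, with 8, DESeq2 gave 13 (39.6% of all genes called), the GC correction 5 (32.5%) and leaving out both libraries 17 (34.9%). Among the members, the pairing by the replicate block changed no other call on its own beyond those given here and in the report. In the pathway list against NC, the block added ZBP1 (higher with siFAT1-1) and PSMB9 (lower with siFAT1-2). There IFNGR2 lost its call with siFAT1-2. The GC corrections and the fit without both libraries were chosen after seeing the data. In each case the cause was not tested.

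Leaving out 1 library at a time, the calls ranged from 0 to 1 for siFAT1-1 against NC, 1 to 4 for siFAT1-2 against NC, 2 to 18 between the siRNAs, 2 to 11 between the lines, 0 to 1 for siFAT1-1 in HN6, 0 to 4 for siFAT1-2 in HN6 (4 without HN6 NC repeat 1), and 0 to 1 for the line difference of the siFAT1-2 response. They stayed at 0 for the joint knockdown group, for both siRNAs in HN30 and for the line difference of the siFAT1-1 response. The median log2 fold changes ranged from 0.29 to 0.80 for the knockdown group, 0.83 to 1.26 for siFAT1-1, -0.84 to -0.17 for siFAT1-2 and 1.06 to 1.77 between the siRNAs. In single lines they ranged from 0.73 to 1.63 for siFAT1-1 in HN6, -1.69 to 0.47 for siFAT1-2 in HN6, 0.49 to 1.499 for siFAT1-1 in HN30 and -1.75 to 0.13 for siFAT1-2 in HN30. The line differences ranged from -0.32 to 0.81 for siFAT1-1 and -1.06 to 1.69 for siFAT1-2, and HN6 against HN30 from -0.73 to 0.72. With 2 repeats a condition the lone remaining library was assumed to vary like the others. A minimum count of 50 removed IFITM2. Depth limited IFITM2 and the interferon ligands.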
